A study of Mus musculus with 8 samples.

Results

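B cells of mice homozygous for the hs3b-hs4 deletion were compared directly with B cells of mice homozygous for the 3'PAL deletion, in the same state and without the wild-type libraries. Both deletions lie in the 3'RR, a cluster of enhancers that follows the constant genes of the immunoglobulin heavy chain (IgH) locus. The hs3b-hs4 deletion removes a pair of enhancers from the cluster. The labels give only the name of the 3'PAL deletion, which is known to break up the palindrome around the cluster without taking out its enhancers. The comparison uses 4 of the 8 libraries of the series: hs3b-hs4 deletion resting, 3'PAL deletion resting, hs3b-hs4 deletion stimulated and 3'PAL deletion stimulated. Resting cells were freshly purified splenic B cells. Stimulated cells had been cultured for 48 hours with 5 µg/mL lipopolysaccharide, a bacterial product sensed by B cells through TLR4. The background was mixed, labelled 129/C58BL/6, and the labels state no age. Each library was made from B cells pooled from 4 animals after removal of cells carrying the surface protein CD43, so genotype, pool and library cannot be told apart within a state.

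The IgH locus holds V, D and J segments, which are joined to encode the variable part of the antibody, followed by the constant genes for IgM, IgD, the IgG subclasses, IgE and IgA. The 3'RR is known to drive constant gene transcription late in B cell development. It supports the germline transcription that precedes class switching and raises the output of the rearranged locus when B cells become antibody-secreting cells. Ighm RNA ends in 1 of 2 ways: a tail that anchors IgM in the membrane, used by resting B cells, or a tail that lets it be secreted, favoured in antibody-secreting cells.

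Ribosome-depleted RNA was sequenced and deposited as counts per gene, with 24336168 counts in the hs3b-hs4 deletion resting library, 25676159 in 3'PAL deletion resting, 25596608 in hs3b-hs4 deletion stimulated and 28432227 in 3'PAL deletion stimulated. Levels are given as CPM, counts divided by the scaled library size, so that 3 counts, taken as the floor, lay between 0.105 and 0.122 CPM. Of 29 B cell identity genes, none was past 2-fold between the genotypes in either state. Of 12 T cell markers, Cd3d, Cd3e and Cd3g, which define the lineage, were under 0.3 CPM in all 4 libraries, and Lck, a kinase, was at 16.6 to 21.3 CPM. The T cell markers summed to 66.7 CPM in the hs3b-hs4 deletion and 38.5 CPM in the 3'PAL deletion at rest, where Cd4 had 39.8 CPM and 9.95 CPM. Xist was at or under 0.193 CPM and the Y-linked Ddx3y at 127 to 247 CPM in all 4 libraries, so the pools did not differ in sex.

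The genotypes differed in which form of Ighm RNA they held, and the tails that separate the forms are shown here. The coding exons of Ighm lie on the minus strand of mouse chromosome 12 (GRCm38), at chr12:113420867-113422730 for the secreted form and chr12:113418826-113422730 for the membrane form. The forms share their first 1305 coding bases. The secreted form has 4 coding exons and the membrane form 6. The last 18 shared bases are in lower case and the form's own bases, up to the stop codon, in capitals (GENCODE M21 transcripts).
Ighm secreted: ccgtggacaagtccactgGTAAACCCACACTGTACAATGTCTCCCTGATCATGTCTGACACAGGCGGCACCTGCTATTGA
Ighm membrane: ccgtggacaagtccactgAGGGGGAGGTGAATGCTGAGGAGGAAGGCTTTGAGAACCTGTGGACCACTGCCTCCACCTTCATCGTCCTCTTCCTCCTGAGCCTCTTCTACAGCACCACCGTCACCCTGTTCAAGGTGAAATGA

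In resting cells, secreted Ighm made up 75.7% of Ighm transcripts in the hs3b-hs4 deletion library and 28.6% in the 3'PAL deletion library. In stimulated cells the shares were 86.6% in the hs3b-hs4 deletion library and 71.6% in the 3'PAL deletion library. These shares rest on the authors' transcript levels in TPM, a level scaled to transcript length, which were assigned to the forms from reads that mostly lie in their common exons. With 1 library per genotype and state there is no replicate check and no test. On estimated counts the 95% Wilson intervals, which cover counting error only, did not overlap. They were 72.6 to 73.1% against 25.3 to 26.0% at rest, and 84.6 to 84.9% against 68.4 to 68.8% after stimulation. They treat every estimated count as a read that tells the forms apart, so they are too narrow. The error of assigning reads to the forms is left out.

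The forms differed in opposite directions. Secreted Ighm stood at 2520 TPM in the hs3b-hs4 deletion library and 556 TPM in the 3'PAL deletion library at rest, and at 7419 TPM and 4018 TPM in the same order after stimulation. Membrane Ighm stood at 810 TPM in the hs3b-hs4 deletion library and 1392 TPM in the 3'PAL deletion library at rest, and at 1152 TPM and 1591 TPM after stimulation. The secreted form was thus higher and the membrane form lower in the hs3b-hs4 deletion in both states. Ighd, which encodes the IgD that resting B cells carry beside IgM, went the way of the membrane form, with 330 CPM of estimated counts in the hs3b-hs4 deletion library and 632 CPM in the 3'PAL deletion library at rest, and 99.9 CPM against 176 CPM after stimulation. Its transcripts were mostly of the membrane form in all 4 libraries, with a secreted share of 10.4% in the hs3b-hs4 deletion and 11.6% in the 3'PAL deletion at rest, and 13.5% against 18.2% after stimulation.

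**Figure D1:**
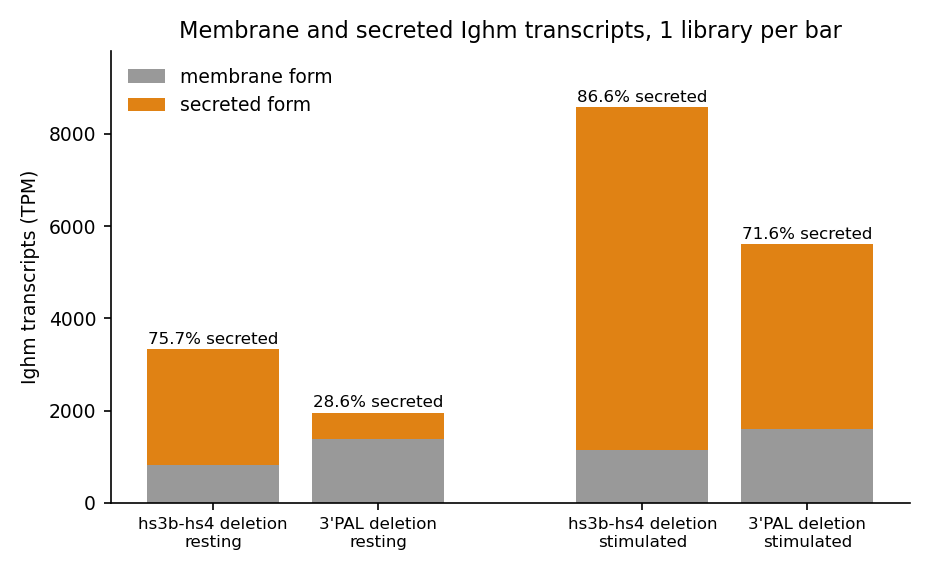
Level of membrane (grey) and secreted (orange) Ighm transcripts in TPM on the vertical axis, 1 library per bar, with the secreted share written above each bar. At rest the hs3b-hs4 deletion bar is mostly secreted (75.7%) and the 3'PAL deletion bar mostly membrane (28.6% secreted).

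Summed over both forms, Ighm was higher in the hs3b-hs4 deletion in both states. Resting cells had 3686 CPM of Ighm in the hs3b-hs4 deletion and 2454 CPM in the 3'PAL deletion, a ratio of 1.5 (95% exact conditional binomial interval 1.49 to 1.52, counting error only). Stimulated cells had 10715 CPM in the hs3b-hs4 deletion and 6582 CPM in the 3'PAL deletion, a ratio of 1.63 (1.62 to 1.64). Over both states the log2 fold change was 0.64 ± 0.15 (SE), which did not pass edgeR's quasi-likelihood test (adjusted p = 0.375). Stimulated cells had 2.91 times the Ighm level of resting cells in the hs3b-hs4 deletion and 2.68 times in the 3'PAL deletion.

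The IgG constant genes went the other way. Summed over Ighg3, Ighg1, Ighg2b and Ighg2c, the hs3b-hs4 deletion had 15.3 CPM and the 3'PAL deletion 51.2 CPM at rest, a ratio of 0.298 (0.266 to 0.334). After stimulation the sum was 33.2 CPM in the hs3b-hs4 deletion and 106 CPM in the 3'PAL deletion, a ratio of 0.315 (0.292 to 0.34). Gene counts do not separate germline transcripts, made before switching, from the RNA of switched cells.

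The subclass that carried this gap was not the same in both states. Ighg3, the subclass that lipopolysaccharide is known to induce most together with Ighg2b, had 1.35 CPM in the hs3b-hs4 deletion and 32.9 CPM in the 3'PAL deletion at rest, from 35 and 811 counts. After stimulation Ighg3 had 22.6 CPM in the hs3b-hs4 deletion and 34.9 CPM in the 3'PAL deletion. Ighg3 was thus 16.8-fold higher in stimulated than in resting hs3b-hs4 deletion cells (interval 11.9 to 24.3), and 1.06-fold higher in 3'PAL deletion cells (0.966 to 1.16). Ighg2b showed the reverse: 5.24 CPM in the hs3b-hs4 deletion against 11.5 CPM in the 3'PAL deletion at rest (ratio 0.458, but 0.288 on transcript counts), and 7.48 CPM against 65.2 CPM after stimulation, where the ratio was 0.115 (0.0983 to 0.133). Its level with stimulation was 1.43-fold higher in the hs3b-hs4 deletion and 5.69-fold higher in the 3'PAL deletion. Ighg3 therefore made up 8.84% of IgG counts in the hs3b-hs4 deletion and 64.3% in the 3'PAL deletion at rest, and 68.1% against 33.1% after stimulation. Over both states neither gene passed the test (edgeR log2 fold change −2.21 ± 0.91 and adjusted p = 0.716 for Ighg3; −2.23 ± 0.56 and 0.401 for Ighg2b), a fit that assumes the same change in both states.

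The remaining constant genes were low. Igha, the last constant gene before the 3'RR, had 31.2 CPM in the hs3b-hs4 deletion and 15.0 CPM in the 3'PAL deletion at rest, a ratio of 2.09 (1.84 to 2.37), but 0.9 CPM and 0.7 CPM after stimulation, where the interval of the ratio (0.675 to 2.47) includes equality. Ighg1 had 8.06 CPM in the hs3b-hs4 deletion and 6.09 CPM in the 3'PAL deletion at rest and 2.51 CPM against 4.24 CPM after stimulation, and its resting direction turned round on the authors' transcript counts (ratio 0.907). Ighg2c stayed at or under 1.12 CPM and its ratio intervals (0.402 to 1.75 at rest, 0.287 to 1.05 after stimulation) include equality. Ighe had at most 8 counts in any of the 4 libraries. In the third deletion of the series, which removes the whole 3'RR, all 4 IgG genes were under 0.4 CPM and Ighm stood at 1260 CPM at rest and 3524 CPM after stimulation, below both genotypes compared here.

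**Figure D2:**
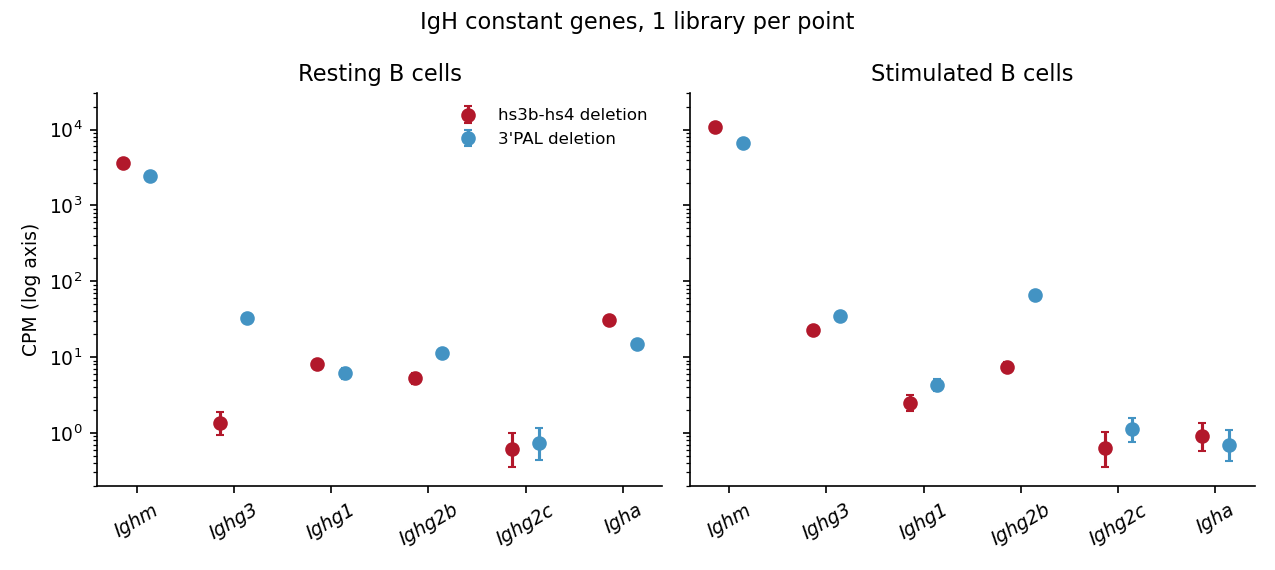
Level of each IgH constant gene in CPM (log axis) in resting and stimulated B cells, 1 library per point, with exact 95% Poisson intervals as bars. Ighm lies higher in the hs3b-hs4 deletion in both states, Ighg3 is furthest apart at rest (1.35 against 32.9 CPM) and Ighg2b after stimulation (7.48 against 65.2 CPM).

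Light chain genes, which lie on other chromosomes, did not keep 1 direction. Igkc, the kappa constant gene, had 2027 CPM in the hs3b-hs4 deletion and 1564 CPM in the 3'PAL deletion at rest, and 3316 CPM against 4462 CPM after stimulation. Iglc2, a lambda constant gene, had 276 CPM against 206 CPM at rest and 291 CPM against 346 CPM after stimulation, again hs3b-hs4 deletion first. The joining chain gene Igj, whose product links IgM into its secreted polymer, had 877 CPM in the hs3b-hs4 deletion and 598 CPM in the 3'PAL deletion at rest and 462 CPM against 603 CPM after stimulation. Each of these was higher in the hs3b-hs4 deletion at rest and lower after stimulation. Over both states Igkc, Iglc2 and Igj had adjusted p values of 1.00, 0.967 and 0.973 (edgeR). Of 7 plasma cell markers measured, which include Igj, none passed the size rule given below in either state; their summed level was 1032 CPM in the hs3b-hs4 deletion and 731 CPM in the 3'PAL deletion at rest, and 974 CPM against 1177 CPM after stimulation.

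V segment RNA also differed, and by V family and position along the locus, which went together. Summed IgH V segment RNA was 654 CPM in the hs3b-hs4 deletion and 403 CPM in the 3'PAL deletion at rest, a ratio of 1.62, and 1787 CPM against 1069 CPM after stimulation, a ratio of 1.67; both ratios are close to those of Ighm. The Ighv5 family, at the end of the V region nearest the D segments, had 165 CPM in the hs3b-hs4 deletion and 59.1 CPM in the 3'PAL deletion at rest, a ratio of 2.80 (2.63 to 2.97). After stimulation it had 584 CPM and 172 CPM in the same order, a ratio of 3.40 (3.29 to 3.51). The Ighv1 family, the largest, had 84.9 CPM in the hs3b-hs4 deletion and 104 CPM in the 3'PAL deletion at rest (ratio 0.815, 0.77 to 0.863), and 298 CPM against 327 CPM after stimulation (ratio 0.911, 0.883 to 0.939). The Ighv5 family thus made up 25.2% of V segment counts in the hs3b-hs4 deletion against 14.7% in the 3'PAL deletion at rest, and 32.7% against 16.1% after stimulation.

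Grouped by position, the 18 segments with at least 10 CPM in a library that start nearest the D segments, from 113588267 to 113994469 on chromosome 12, were 2.37-fold higher in sum in the hs3b-hs4 deletion at rest (2.28 to 2.47) and 2.55-fold higher after stimulation (2.49 to 2.61). Of these 18, 17 were higher at rest and 18 after stimulation. Some of the 18 reached 10 CPM in the hs3b-hs4 deletion only, with at most 9.91 CPM in the 3'PAL deletion. For those the filter itself favours high ratios. The 10 segments starting from 114059844 to 114487136 were 1.37-fold higher at rest and 1.4-fold higher after stimulation. The 12 segments starting from 114538495 to 115952538 had ratios of 0.95 (0.884 to 1.02) and 1.01 (0.975 to 1.05). Of the nearest 18 segments, 13 were of the Ighv2 or Ighv5 family and 0 of Ighv1. Of the furthest 12, 10 were of Ighv1 and 0 of Ighv2 or Ighv5, so family and position were not separated. V segments share long stretches of sequence, so reads can be placed on the wrong member of a family, and the bounds of these groups were chosen after the values were seen. The part that differing 129 or C58BL/6 alleles of the locus play in these V segment levels was not tested.

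**Figure D3:**
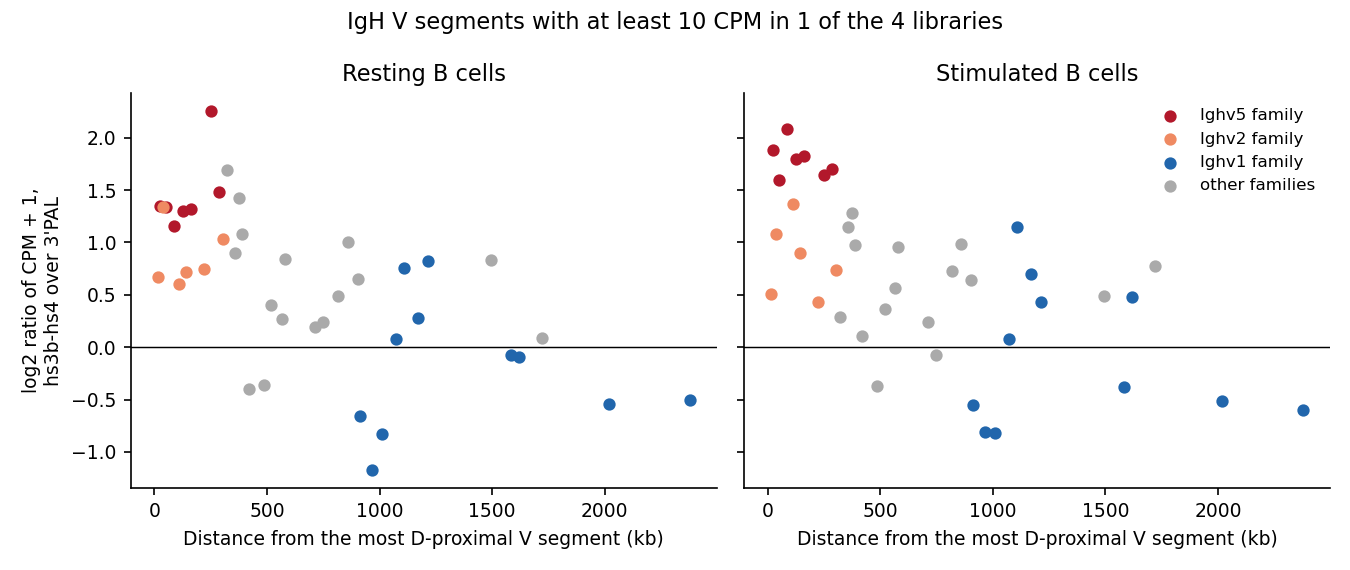
Log2 ratio (hs3b-hs4 over 3'PAL, CPM + 1) of each IgH V segment with at least 10 CPM in a library, against its distance in kb from the V segment nearest the D segments, at rest and after stimulation. Ighv5 and Ighv2 segments near the origin lie above 0 in both states, and Ighv1 segments scatter on both sides of 0.

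Across all genes, few differences held over both states. With genotype and state as terms, fitted on the 6 mutant libraries, 9 genes rose in the hs3b-hs4 deletion relative to the 3'PAL deletion (0.0621% of 14495 tested) and 17 fell (0.117%) at an adjusted p under 0.05 in edgeR's quasi-likelihood test. The third deletion enters this fit to give an estimate of the spread, which leaves 2 residual degrees of freedom. With 1 pool per genotype and state, that spread is what the genotype and state terms leave over, and no replicate pools enter it. The 4 compared libraries alone gave 0 calls (781 genes at an unadjusted p under 0.05), while DESeq2 on the 6 libraries gave 96. Leaving out the 3'PAL deletion resting library left 2 calls, of which 0 were among the 26, leaving out the 3'PAL deletion stimulated library 2, leaving out the hs3b-hs4 deletion resting library 40 and the hs3b-hs4 deletion stimulated library 216. All 26 genes had the same direction in both states, but 11 of them were under 1 CPM in both stimulated libraries and were called from resting cells. Of the 9 that rose, 5 were Ighv5 segments. Rose and fell give the hs3b-hs4 deletion relative to the 3'PAL deletion and do not say which of the genotypes changed. Other genes named from this fit are described next, and Adam23 among them was called from resting cells.

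Emb, which encodes embigin, a cell adhesion protein and partner of monocarboxylate transporters, fell in the hs3b-hs4 deletion. It had 16.5 CPM in the hs3b-hs4 deletion and 75.8 CPM in the 3'PAL deletion at rest, and 12.5 CPM against 78.0 CPM after stimulation, with a log2 fold change of −2.41 ± 0.15 (SE, edgeR adjusted p = 0.0156). The third deletion had 13.6 CPM at rest and 14.1 CPM after stimulation, near the hs3b-hs4 deletion. Emb lies at chr13:117220625-117274098.

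Glo1 and Dnah8 are neighbours on chromosome 17, at chr17:30592866-30612659 and chr17:30624354-30875264, and both fell. Glo1, which encodes glyoxalase I, an enzyme that clears the glycolysis by-product methylglyoxal, had 20.9 CPM in the hs3b-hs4 deletion and 68.8 CPM in the 3'PAL deletion at rest and 31.8 CPM against 104 CPM after stimulation (log2 fold change −1.71 ± 0.11, edgeR adjusted p = 0.0156). Dnah8, an axonemal dynein heavy chain, had 5.36 CPM against 76.0 CPM at rest and 2.78 CPM against 20.5 CPM after stimulation (−3.40 ± 0.24, edgeR adjusted p = 0.0165). In the third deletion Glo1 stood at 22 and 34.2 CPM and Dnah8 at 14.3 and 5.48 CPM at rest and after stimulation, again nearer the hs3b-hs4 deletion. Of the other tested genes starting within 500 kb of Glo1, none passed the test: Btbd9, on its other side, had 34.2 CPM in the hs3b-hs4 deletion and 43.2 CPM in the 3'PAL deletion at rest and 22.8 CPM against 31.7 CPM after stimulation (log2 fold change −0.40 ± 0.11, edgeR adjusted p = 0.472).

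Dynlt1b, a dynein light chain gene at chr17:6430112-6436293, also fell, with 11.0 CPM in the hs3b-hs4 deletion against 31.3 CPM in the 3'PAL deletion at rest and 25.4 CPM against 61.6 CPM after stimulation (log2 fold change −1.38 ± 0.13, edgeR adjusted p = 0.0326). It has near-identical copies beside it, among which reads can be split: Dynlt1a had 5.67 CPM against 12.4 CPM at rest and Dynlt1c 16.7 CPM against 23.6 CPM, while Dynlt1f had 9.14 CPM against 7.8 CPM, none past the test. Atp6v0c, which encodes the proton-conducting ring subunit of the vacuolar ATPase, rose, with 57.3 CPM in the hs3b-hs4 deletion and 23.5 CPM in the 3'PAL deletion at rest and 40.6 CPM against 13.9 CPM after stimulation (1.41 ± 0.15, edgeR adjusted p = 0.0468). It lies at chr17:24163866-24169702, and the third deletion had 53.6 and 44.5 CPM, close to the hs3b-hs4 deletion. Adam23, a membrane protein of the disintegrin family, rose too, with 82.2 CPM in the hs3b-hs4 deletion and 25.4 CPM in the 3'PAL deletion at rest and under 1 CPM in both after stimulation (1.72 ± 0.18, edgeR adjusted p = 0.0468). The Adam23 call was lost in 8 of 12 alternatives, among them RLE scaling, library size alone, all 8 libraries and transcript counts, with edgeR adjusted p up to 0.42 (without the 3'PAL deletion resting library) and 0.211 without the hs3b-hs4 deletion resting library.

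Chromosome 17 held 6 of the 26 called genes and 737 of the 14495 tested. Besides Glo1, Dnah8, Dynlt1b and Atp6v0c, these were Trim10 and Rhag, a red cell gene given below. Trim10 had 9.56 CPM in the hs3b-hs4 deletion and 59.9 CPM in the 3'PAL deletion at rest. Both Trim10 and Rhag were under 1 CPM in both stimulated libraries. The calls for Emb, Glo1, Dnah8, Dynlt1b and Atp6v0c were each lost without the 3'PAL deletion resting library, with adjusted p of 0.0690, 0.0690, 0.0690, 0.136 and 0.0877 in edgeR. All of these but Dnah8 were also lost without the 3'PAL deletion stimulated library, and Atp6v0c without the hs3b-hs4 deletion resting library. Some calls were also lost with every library kept: Atp6v0c with RLE scaling and on transcript counts (edgeR adjusted p = 0.052 and 0.0891, with a log2 fold change of 0.85 on transcript counts), and Dynlt1b without TMM scaling and with all 8 libraries (0.0566 and 0.0751). Of 13 alternatives, 7 ended the call of Atp6v0c, 6 that of Dynlt1b, 3 each those of Emb and Glo1, and 2 that of Dnah8. Their directions held in every alternative run.

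Within a state there is 1 library per genotype, so genes were compared by size alone: a log2 ratio of CPM + 1 of at least 1 in either direction, with at least 10 CPM in the higher library. At rest 130 genes were higher in the hs3b-hs4 deletion (1.58% of 8235) and 127 lower (1.54%). After stimulation 24 were higher (0.289% of 8317) and 140 lower (1.68%). The rule was passed upward in both states by 9 genes, of which 7 were IgH V segments and 1 Atp6v0c, and downward by 11, among them Emb, Glo1, Dnah8, Dynlt1b and the beta globin genes Hbb-bs and Hbb-bt. Without TMM scaling the resting median of all genes moved from −0.01 to 0.14 on the log2 scale, and the split became 176 higher and 91 lower. Resting ratios near 0 therefore depend on the scaling.

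**Figure D4:**
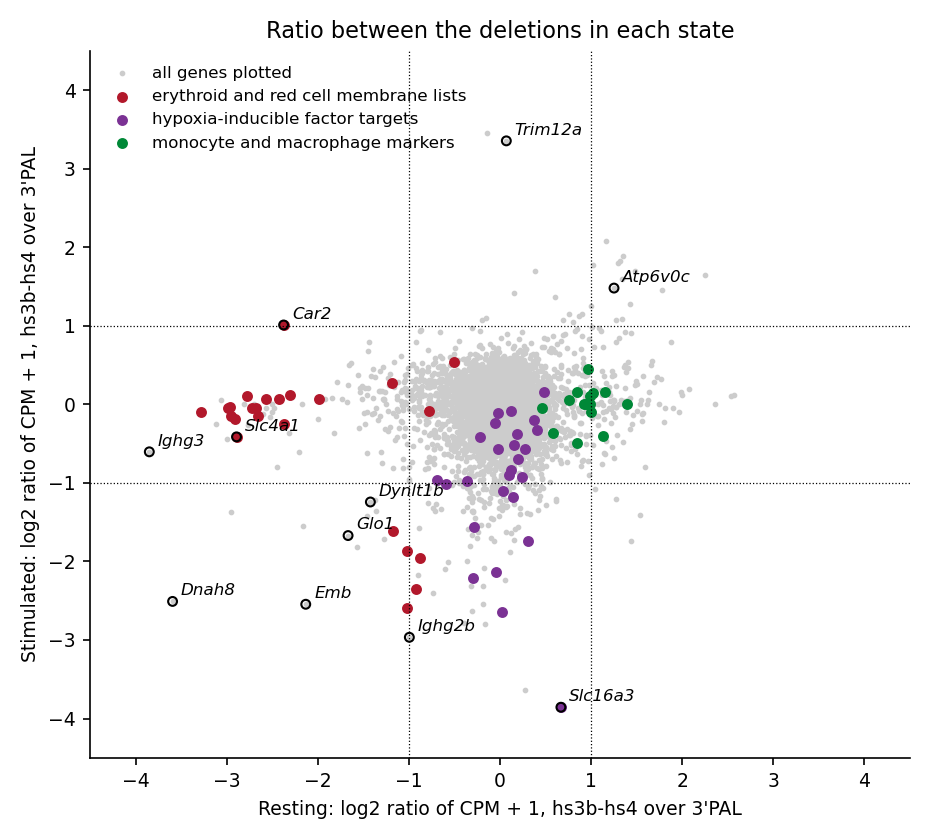
Log2 ratio (hs3b-hs4 over 3'PAL, CPM + 1) at rest (horizontal) and after stimulation (vertical), for each gene with at least 10 CPM in any of the 4 libraries; dotted lines mark 2-fold. Red cell genes spread to the left at rest, hypoxia-inducible factor targets downward after stimulation, and Emb, Glo1, Dnah8 and Dynlt1b lie low in both.

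Red blood cell genes were among those lower at rest. Of 10 erythroid markers at 10 CPM or more, 8 were lower in the hs3b-hs4 deletion (5 of 9 without TMM scaling), against 1.54% of all genes, and 0 higher. Their median log2 ratio was −1.18 against −0.01 over all genes. Slc4a1, the red cell anion exchanger, had 57.4 CPM in the hs3b-hs4 deletion and 433 CPM in the 3'PAL deletion, and fell over both states (log2 fold change −2.95 ± 0.17, edgeR adjusted p = 0.0156), a call lost without either resting library (adjusted p = 0.436 without hs3b-hs4 deletion, 0.136 without 3'PAL deletion). The globin genes Hba-a1, Hba-a2, Hbb-bs and Hbb-bt summed to 10345 CPM in the hs3b-hs4 deletion and 20375 CPM in the 3'PAL deletion at rest. After stimulation the same sum was 41.7 CPM and 237 CPM. In bulk RNA, fewer cells of a type and less RNA per cell cannot be told apart.

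Membrane and cytoskeleton genes of the red cell were further apart than the globins. Of 16 such genes at 10 CPM or more, on a list chosen after the values were seen, 14 were lower at rest, against 1.54% of all genes. Among them Epb4.2, Aqp1, Kel, Rhd, Rhag and Add2 reached 10 CPM in the 3'PAL deletion library only. The filter itself therefore favours low ratios. In the fit over both states 7 of the 19 tested fell, against 0.117% of all genes. These calls come from resting cells: Slc4a1, Epb4.2, Aqp1, Kel, Rhd, Rhag and Add2 were under 1 CPM in both stimulated libraries. Aqp1, a water channel, had 5.82 CPM in the hs3b-hs4 deletion and 65.4 CPM in the 3'PAL deletion, an 11.2-fold difference (9.50 to 13.4). Kel, Rhd and Rhag, which carry or support blood group antigens, had 2.39, 2.93 and 1.39 CPM in the hs3b-hs4 deletion and 26.0, 28.7 and 14.7 CPM in the 3'PAL deletion. Epb4.2 and Add2, of the membrane skeleton, had 6.59 and 1.5 CPM against 58.0 and 15.1 CPM. Other genes low by the rule at rest were Ermap (4.47 against 41.8 CPM), Tmcc2 (18.6 against 156 CPM), Hemgn (3.74 against 40.2 CPM) and Apol11b (7.79 against 72.7 CPM), hs3b-hs4 deletion first. In the third deletion Slc4a1 stood at 370 CPM and Aqp1 at 64.6 CPM at rest, near the 3'PAL deletion.

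**Figure D5:**
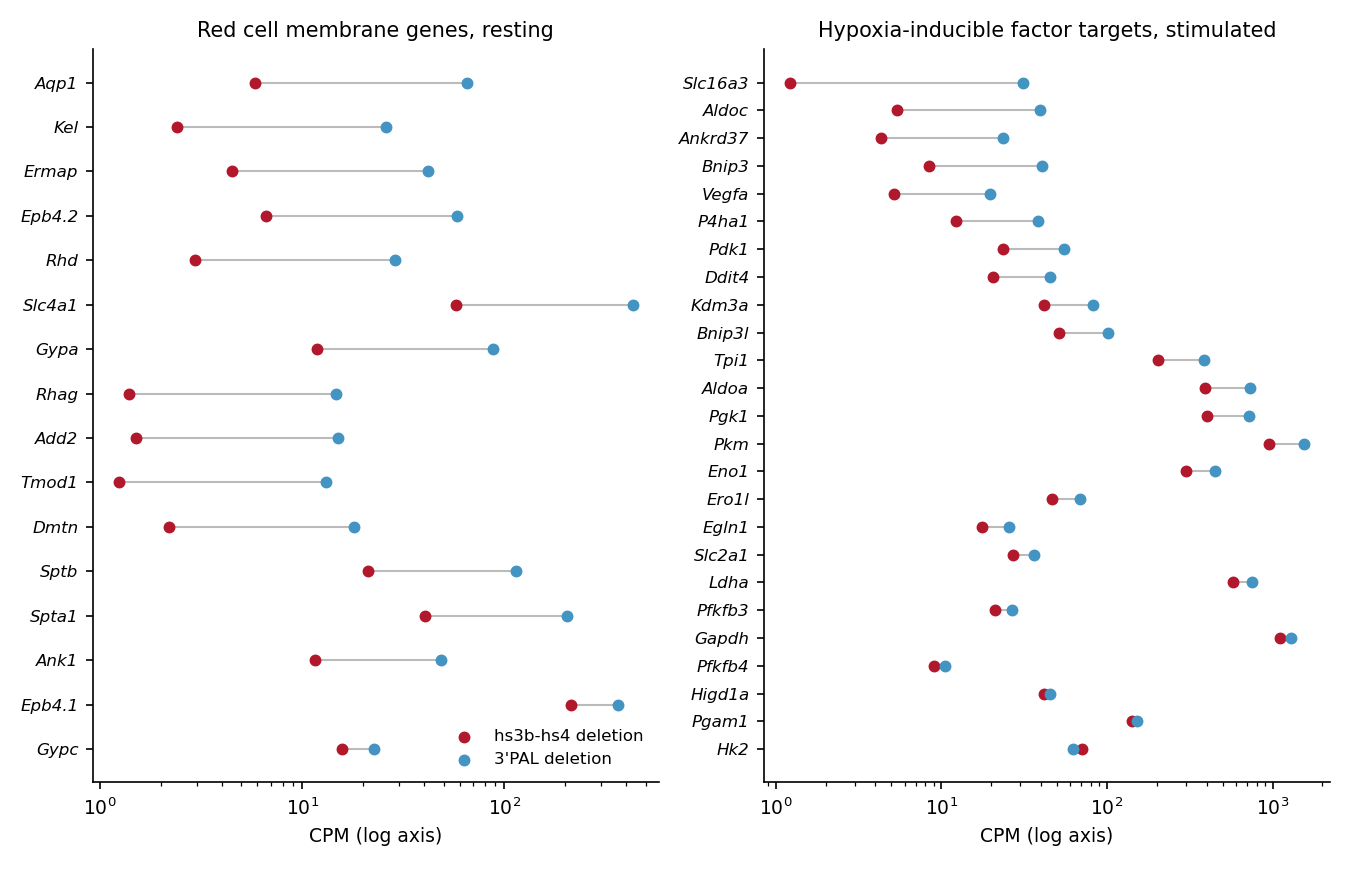
Level in CPM (log axes) in the hs3b-hs4 deletion (red) and the 3'PAL deletion (blue) of red cell membrane genes at rest (left) and hypoxia-inducible factor targets after stimulation (right), for members with at least 10 CPM, ordered by ratio. Aqp1 is furthest apart on the left (5.82 against 65.4 CPM) and Slc16a3 on the right (1.21 against 31.1 CPM).

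Myeloid genes were higher in the hs3b-hs4 deletion at rest. All 15 monocyte and macrophage markers at 10 CPM or more lay above 0, with a median log2 ratio of 0.96. By the rule 4 of the 15 were higher (10 without TMM scaling), against 1.58% of all genes. Among these, Cd163 reached 10 CPM in the hs3b-hs4 deletion library only, which favours a high ratio. Csf1r, the receptor for macrophage colony-stimulating factor, had 113 CPM in the hs3b-hs4 deletion and 50.1 CPM in the 3'PAL deletion, and the summed markers 894 CPM and 461 CPM. The largest ratios by the rule were of H2-M2, a nonclassical MHC gene (61.8 against 9.59 CPM), Klri1, a lectin-like receptor (10.5 against 0.975 CPM), Mmp12, the macrophage metalloelastase (78.1 against 14.5 CPM), Il1b (37.5 against 8.13 CPM), Mefv (19.1 against 4.02 CPM), Prg2 (23.2 against 5.08 CPM), Nlrp3 (43.9 against 10.5 CPM) and Cd4 (39.8 against 9.95 CPM). Of these, Mmp12 passed the test of the fit over both states (log2 fold change 2.37 ± 0.25, edgeR adjusted p = 0.0468), from resting cells alone, since it had 1 count in each stimulated library. The call was lost without either 3'PAL deletion library. Il1b, Nlrp3 and Mefv encode an inflammatory cytokine and inflammasome proteins. Dendritic cell markers summed to 147 CPM in the hs3b-hs4 deletion and 65.9 CPM in the 3'PAL deletion, and neutrophil markers to 7.36 CPM and 2.72 CPM. After stimulation no monocyte and macrophage marker reached 10 CPM.

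Cell cycle genes stood on opposite sides in the 2 states. At rest all 22 at 10 CPM or more were lower in the hs3b-hs4 deletion, with a median log2 ratio of −0.64. By the rule 7 of the 22 were lower, against 1.54% of all genes. Among these, Ccnb2 and Birc5 reached 10 CPM in the resting 3'PAL deletion library only, which favours low ratios. Without TMM scaling 19 reached 10 CPM, of which 2 lay above 0 and 4 were lower by the rule. Mki67, the proliferation marker, had 97.1 CPM in the hs3b-hs4 deletion and 370 CPM in the 3'PAL deletion at rest. After stimulation all 30 lay above 0, 0 by the rule, with a median of 0.36. Ribosome biogenesis genes followed the same course after stimulation, 25 of 25 above 0 with a median of 0.34, and were at 0.02 at rest. No gene of either list passed the test over both states. The lower cell cycle RNA at rest stands beside the lower erythroid RNA given above, and their relation was not tested.

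Antigen presentation and early response genes were also ordered by state. All 12 MHC class II presentation genes were above 0 at rest (median 0.24) and all 12 below 0 after stimulation (median −0.25), none by the rule. Dendritic cell and monocyte and macrophage markers, of cells that also carry MHC class II, were higher in the same resting library, as given above, and their part in this was not tested. Cd74, the invariant chain, had 5882 CPM in the hs3b-hs4 deletion and 4816 CPM in the 3'PAL deletion at rest and 1660 CPM against 1824 CPM after stimulation. Immediate early and stress genes had a median of 0.11 at rest. After stimulation all 14 at 10 CPM or more were below 0 (1 was above 0 with RLE scaling), with a median of −0.66, and Jun, an AP-1 subunit, had 27.2 CPM in the hs3b-hs4 deletion and 63.8 CPM in the 3'PAL deletion.

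After stimulation the largest low ratio in the hs3b-hs4 deletion was that of Slc16a3, which encodes the lactate exporter MCT4. It had 1.21 CPM in the hs3b-hs4 deletion and 31.1 CPM in the 3'PAL deletion, a 25.6-fold difference (17.9 to 37.9, counting error only). At rest it was near the floor in both, with 1.04 CPM and 0.284 CPM. Slc16a3 is a known target of hypoxia-inducible factor, a transcription factor that builds up when oxygen is low and raises glycolysis genes. A list of 30 such targets was therefore drawn up after the values were seen. Of 25 at 10 CPM or more after stimulation, Slc16a3 itself among them, 8 were lower by the rule, against 1.68% of all genes, and 0 higher. Of the 25, 24 lay below 0, with a median of −0.84 against 0.03 over all genes. Slc16a3, Aldoc, Ankrd37, Bnip3 and Vegfa reached 10 CPM in the 3'PAL deletion library only, so the filter itself favours low ratios. At rest 21 reached 10 CPM, none passed the rule, and the median was 0.13.

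Among them, Aldoc, the aldolase of brain, had 5.40 CPM in the hs3b-hs4 deletion and 39.1 CPM in the 3'PAL deletion after stimulation. Ankrd37 had 4.31 CPM against 23.5 CPM, and Bnip3, a mitochondrial mitophagy receptor, 8.42 CPM against 40.3 CPM. Vegfa, the vascular growth factor, had 5.21 CPM against 19.7 CPM, and P4ha1, a collagen prolyl hydroxylase subunit, 12.2 CPM against 38.2 CPM. The abundant glycolysis enzymes differed by under 2-fold: Pgk1 had 402 CPM in the hs3b-hs4 deletion and 719 CPM in the 3'PAL deletion, and Pkm 956 CPM and 1547 CPM. Hk2 alone lay above 0, with 70.3 CPM against 62.7 CPM. The third deletion had 4.08 CPM of Slc16a3, 9.11 CPM of Aldoc and 11.2 CPM of Bnip3 after stimulation, between the genotypes compared and nearer the hs3b-hs4 deletion. None of the list passed the test over both states, and the culture of each library was not repeated.

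Hypoxia-inducible factor is known to bind a short core, ACGTG, in the promoters of its targets. The core was searched on both strands of the 250 bases upstream of RefSeq starts (GRCm38.p6), where a palindromic CACGTG counts as 2 overlapping matches. It was found in 16.6% of 32851 promoters of all genes. Among the 27 list genes with an entry it was found in 22 of 41 promoters, which covers 19 of the 27. Starts of the same gene can overlap and share a match. The list was made of known targets, so this contrast says nothing about the genotypes. The promoters of the 4 genes furthest apart after stimulation, among those with at least 10 CPM in a library, a single RefSeq start and a match, are shown, 5′ to 3′ on the strand of the gene, with the core in capitals. Each promoter shown holds the core because a match was required. Aldoc and Vegfa, both further apart than P4ha1, have 2 starts each and were left out. Aldoc had no match at either start, and Vegfa had 1 at its second start only. A match describes these letters only.
Slc16a3, chr11:120948817-120949066, plus strand: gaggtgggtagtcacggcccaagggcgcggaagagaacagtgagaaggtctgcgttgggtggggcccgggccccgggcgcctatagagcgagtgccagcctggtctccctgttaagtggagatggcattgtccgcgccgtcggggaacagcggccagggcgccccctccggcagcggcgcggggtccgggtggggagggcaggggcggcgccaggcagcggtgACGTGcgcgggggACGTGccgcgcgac
Ankrd37, chr8:45999851-46000100, minus strand: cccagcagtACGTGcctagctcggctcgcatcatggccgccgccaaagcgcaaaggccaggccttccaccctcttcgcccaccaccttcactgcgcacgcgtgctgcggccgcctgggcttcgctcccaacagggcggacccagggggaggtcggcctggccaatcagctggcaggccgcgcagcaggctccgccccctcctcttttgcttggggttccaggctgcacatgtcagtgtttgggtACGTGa
Bnip3, chr7:138909507-138909756, minus strand: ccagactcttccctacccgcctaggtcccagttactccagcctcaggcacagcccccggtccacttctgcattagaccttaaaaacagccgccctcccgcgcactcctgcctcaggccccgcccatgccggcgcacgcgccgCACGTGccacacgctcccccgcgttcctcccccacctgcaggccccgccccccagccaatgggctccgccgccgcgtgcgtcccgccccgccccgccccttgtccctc
P4ha1, chr10:59323046-59323295, plus strand: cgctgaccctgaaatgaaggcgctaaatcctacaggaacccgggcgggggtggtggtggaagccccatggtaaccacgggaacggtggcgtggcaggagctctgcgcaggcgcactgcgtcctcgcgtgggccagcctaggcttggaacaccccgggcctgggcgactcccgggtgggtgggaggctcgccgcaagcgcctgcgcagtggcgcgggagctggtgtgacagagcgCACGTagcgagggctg

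Other groups were lower in the hs3b-hs4 deletion after stimulation. Amino acid and integrated stress response genes were a list also chosen after the values were seen. Of 13 at 10 CPM or more, 12 lay below 0 (10 of 13 with RLE scaling) and 3 were lower by the rule, against 1.68% of all genes. Cth, an enzyme of cysteine synthesis, had 4.38 CPM in the hs3b-hs4 deletion and 16.6 CPM in the 3'PAL deletion. Chac1 had 2.47 CPM and 11.7 CPM, and Ddit3 5.83 CPM and 14.3 CPM. All 3 reached 10 CPM in the 3'PAL deletion library only. Of 27 interferon response genes, 6 were lower by the rule, against 1.68% of all genes, with a median of −0.52 against 0.03 over all genes. Irf7, a regulator of interferon genes, had 22.4 CPM against 63.3 CPM. Ifi44 had 3.8 CPM against 20.7 CPM, and so reached 10 CPM in the 3'PAL deletion library only. Some types of small structural RNA, by GENCODE gene type, were lower. At 10 CPM or more, 13 of 18 small nuclear RNAs (72.2%) and 15 of 33 small nucleolar RNAs (45.5%) were lower by the rule. The share was 1.68% of all genes and 0.783% of protein-coding genes. None of either type was lower by the rule at rest. None of 6 small Cajal body RNAs was lower by the rule, and miscellaneous RNAs, 3 of 6 lower by the rule, summed to 23206 CPM in the hs3b-hs4 deletion and 23389 CPM in the 3'PAL deletion. Rnu12, the U12 RNA of the minor spliceosome, had 6.22 CPM in the hs3b-hs4 deletion and 49.0 CPM in the 3'PAL deletion after stimulation. At rest it had 7.52 CPM against 8.53 CPM, and so reached 10 CPM in the stimulated 3'PAL deletion library only.

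Few genes were higher in the hs3b-hs4 deletion after stimulation. Trim12a, of the antiviral Trim5 family, had 13.2 CPM in the hs3b-hs4 deletion and 0.385 CPM in the 3'PAL deletion, and Trim30d 21.3 CPM against 5.88 CPM. At rest both were under 3 CPM in both genotypes. In the third deletion Trim12a stood at 84.2 CPM at rest and 36.8 CPM after stimulation, outside the range of the genotypes compared. Of 7 genes of the Trim5, Trim12 and Trim30 cluster at 10 CPM or more after stimulation, only Trim12a and Trim30d passed the rule. Of the 7, 4 lay above 0, with a median of 0.07. The cluster summed to 317 CPM in the hs3b-hs4 deletion and 390 CPM in the 3'PAL deletion after stimulation. Cacna1h, a T-type calcium channel gene, had 11.4 CPM against 3.54 CPM, Wnt10a 24.2 CPM against 10.7 CPM, Akap12 22.2 CPM against 10.0 CPM, Cyp4f18 12.6 CPM against 5.6 CPM and Rnps1 108 CPM against 51.0 CPM, hs3b-hs4 deletion first. None of these passed the test over both states.

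Genes that neighbour the heavy chain locus differed little. Of 26 neighbours in the table, 21 were tested and none passed over both states. Those at 10 CPM or more had a median log2 ratio of 0.07 at rest and 0.18 after stimulation, where all 12 lay above 0 and none passed the size rule. B cell identity genes were likewise close, with medians of −0.05 at rest (0.10 without TMM scaling) and −0.10 after stimulation and none of 29 past the rule. In the secretory pathway and unfolded protein response list 1 of 34 passed the rule after stimulation, with medians of 0.06 and −0.22, while secreted Ighm was higher in the same libraries.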

How the data were processed

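Splenic B cell RNA was depleted of ribosomal RNA and sequenced as stranded paired-end libraries, per the labels' protocols, making 8 libraries, 1 per genotype and state. Per the submitters' processing notes, the tools were STAR 2.4.0a, featureCounts of Subread 1.4.6-p1, kallisto 0.42.3, SAMtools and bedtools, with the builds mm10 and GRCm38. The authors deposited raw counts per gene, and kallisto's estimated counts and TPM per transcript. The sources used here name neither annotation version nor strand setting, so overlapping and antisense genes may share reads. Some headers of the TPM table did not match their columns, which were read by content.

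Computed here: a single unnamed entry (0.0133 to 0.0342% of counts in the 4 libraries) and the spike-in entries, which had no counts, were left out. edgeR 4.0.16 (R 4.3.3) fitted genotype and state on the 6 mutant libraries after filterByExpr and TMM scaling (biological coefficient of variation 15.3%), with Benjamini-Hochberg adjustment; SE is the size of the log2 fold change over the square root of F. Alternatives used DESeq2 1.42.0, other scalings and rounded estimated counts. Code was tested on simulated counts. Within states, log2(CPM + 1) ratios were compared without a test. Intervals are 95% exact or Wilson and cover counting error only. Depth of each library is given above.

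The members, tests and 28 gene lists were chosen with earlier results of these data known, and 3 more lists after seeing the values. The genes named over both states were the 12 largest changes in each direction with an adjusted p under 0.05, at least 3 in mean log2 CPM, and no change of sign between states. Within a state the 8 largest in each direction by the size rule were named, with up to 4 genes of a list; others named for their lists were chosen after their values were seen, as were Btbd9, Dynlt1a, Dynlt1c and Dynlt1f. V, D and J segments and predicted genes were counted, not named.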

Additional observations from a re-analysis of the deposited data

Results flagged for a closer look

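Some genes stood on opposite sides in the 2 states, and the difference between states was not tested, since there is 1 library per genotype and state. Car2, a carbonic anhydrase on the erythroid list, had a log2 ratio (hs3b-hs4 over 3'PAL) of −2.38 at rest and 1.01 after stimulation. It was the only gene past 2-fold in opposite directions. Ighg1 had a ratio of 1.32 at rest and 0.591 after stimulation, and its resting direction turned round on transcript counts. Igkc had ratios of 1.30 and 0.743, Iglc2 of 1.34 and 0.842, and Igj of 1.47 and 0.766. Summed kappa V segments had ratios of 1.26 and 0.647, and summed lambda V segments of 1.64 and 0.769, at rest and after stimulation. The summed kappa V segments thus moved with Igkc in both states, while Ighm did not turn round.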

How the results depend on the processing

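The number of genes called over both states was 26. It was 96 with DESeq2, 198 with no filter on low counts, 0 with the 4 compared libraries alone and 2 to 216 when a compared library was left out. Of the 96, 25 were among the 26, and of the 198, all 26. With at least 1 CPM required in all 4 compared libraries, an alternative chosen after seeing the data, it was 6, all among the 26. Other settings gave 18 to 30 calls, with 18 without TMM scaling, 21 with RLE scaling, 22 on transcript counts, 25 without erythroid markers and 30 with all 8 libraries; the split was 5 higher and 17 lower on transcript counts. Counts past 2-fold within a state stayed within 1.5 times, except that 38 rather than 24 were higher after stimulation on transcript counts. On estimated counts the secreted share of Ighm was 72.9% in the hs3b-hs4 deletion and 25.6% in the 3'PAL deletion at rest, and 84.7% and 68.6% after stimulation. The Ighm ratio at rest was 1.67 by library size and 1.43 on transcript counts, and after stimulation 1.62 and 1.57. The Ighg1 ratio at rest was 0.907 on transcript counts. The cause of these shifts was not tested. The fit with genotype and state compares the genotypes within a state. It leaves 2 residual degrees of freedom on the 6 mutant libraries, which gave the 26 calls, and 1 on the 4 compared libraries alone. Genes near the floor of 3 counts, such as Ighe, cannot be compared at this depth.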
